A study of Mus musculus with 15 samples.

Results

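The Dlx genes of the mouse lie in 3 linked pairs, and the peaks of FLAG ChIP-seq around these pairs are described here. Every peak of the 12 peak lists was taken whose midpoint lay in 1 of 3 windows of the mm9 genome: chr2:71250000-71500000 around Dlx1 and Dlx2, chr11:94930000-95080000 around Dlx3 and Dlx4, and chr6:6400000-7000000 around Dlx5 and Dlx6. Peaks that shared at least 1 bp were merged into sites, whatever list they came from. This gave 64 of the 61108 merged sites of the series, made of 59, 49 and 92 peaks in the 3 windows. The Dlx1 and Dlx2 window held 15 sites, the Dlx3 and Dlx4 window 19 and the Dlx5 and Dlx6 window 30.

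The study mapped the binding of tagged factors in osteoblasts. Primary cells came from the calvaria of C57BL/6 pups at postnatal day 1 with the genotype Sp7-BioFL/BioFL, in which both alleles of Sp7 carry the tag, and 1 wild-type library of the same strain, age and cell type had no tagged protein. The other libraries came from MC3T3-E1, an osteoblastic line of mouse calvaria, at passages 5 to 10. It was kept for 1 week in a medium that favours bone formation and holds beta-glycerophosphate at 10 mM, ascorbic acid phosphate at 50 ug/mL and BMP2 at 10 ng/ml. The tagged proteins there were Sp7, Dlx5, Sp1, a mutant labelled Sp7mut, and GFP as the control. Sp7 in primary cells and the first 4 of these proteins in the line had 2 libraries each, and both controls had 1. All of them were pulled down with the FLAG M2 antibody. The mutation in Sp7mut, and how the proteins were expressed in the line, are not given in the labels, and neither is whether the replicates of a group were separate cultures or animals.

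Dlx proteins are homeodomain transcription factors related to Distal-less of the fly. Each pair consists of neighbouring genes that face each other and share distant enhancers, and the pairs are used in the branchial arches, the forebrain, the limbs and the skeleton. Dlx5 and Dlx6 are known for their part in bone and craniofacial development, Dlx3 for hair, teeth and bone, and Dlx1 and Dlx2 for the forebrain and the upper jaw. Dlx4 is the partner of Dlx3 and its role in bone is less well known. Sp7, or Osterix, is a zinc finger factor that osteoblasts need to form, and Sp1, of the same family, is present in most cells and recognises GC boxes.

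In the gene table of GRCm38.p6, Dlx1 and Dlx2 stand between Metap1d and Itga6 on chromosome 2, Dlx3 and Dlx4 between Itga3 and Tac4 on chromosome 11, and Dlx6 and Dlx5 between Sem1 and Sdhaf3 on chromosome 6. Coordinates of that build were not used for the peaks, which are in mm9, so no site is placed in a promoter, exon or intron of these genes. RefSeq promoter sequences were found for 2 of the 6 genes, Dlx1 and Dlx2, and are shown as the only regulatory sequence of these loci used here. Both are 300 bases around the annotated start in GRCm38.p6, chr2:71529195-71529494 on the plus strand for Dlx1 and chr2:71546705-71547004 on the minus strand for Dlx2. Capitals mark the GC box letters GGGCGG, or CCGCCC where the box lies on the other strand.
Dlx1: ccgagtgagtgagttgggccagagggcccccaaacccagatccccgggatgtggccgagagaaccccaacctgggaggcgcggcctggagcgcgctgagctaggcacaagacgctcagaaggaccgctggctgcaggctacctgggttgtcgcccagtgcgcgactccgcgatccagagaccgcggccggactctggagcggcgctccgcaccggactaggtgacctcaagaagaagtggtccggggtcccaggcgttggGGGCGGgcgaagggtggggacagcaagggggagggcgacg
Dlx2: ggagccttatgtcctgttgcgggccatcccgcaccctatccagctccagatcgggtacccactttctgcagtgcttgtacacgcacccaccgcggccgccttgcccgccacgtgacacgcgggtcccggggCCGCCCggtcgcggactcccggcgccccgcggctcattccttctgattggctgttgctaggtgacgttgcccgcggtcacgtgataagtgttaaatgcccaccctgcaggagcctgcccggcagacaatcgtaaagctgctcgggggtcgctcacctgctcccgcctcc
The Dlx1 promoter holds the GC box 1 time on the strand shown, and the Dlx2 promoter holds it 1 time on the other strand. Of 32851 RefSeq promoters of this length, 35.7% held GGGCGG on either strand. The homeodomain core letters TAATT, or AATTA on the other strand, were found in neither promoter, and in 27% of all of them. These are matches of letters in a window of another build, and no peak is placed on them.

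Peaks of the tagged factors were denser in the windows than over the genome in all 10 tagged lists, taking the 3 windows together. Dlx5 had 32 peaks of replicate 1 and 44 of replicate 2 in the 3 windows, which together cover 1 Mb. That is 3.20 and 4.40 peaks per 100 kb, against 1.18 and 1.55 over the whole span of peaks. Cell line Sp7 had 29 and 12 peaks there, 2.90 and 1.20 per 100 kb against 0.726 and 0.236. Sp7mut had 15 and 18, or 1.5 and 1.8 per 100 kb against 0.410 and 0.578. Both lists of each of these 3 factors were thus denser in the windows, by 2.72 to 5.08 times. Sp1 had 7 peaks in replicate 1 and 37 in replicate 2, at 1.70 and 3.37 times its density over the genome, so its replicates differed more from each other than the other factors did. Primary Sp7 had 2 and 3 peaks, at 1.92 and 2.40 times. The wild-type control had none of its 183 peaks in the windows and the GFP control 1 of 269, at 9.54 times its density over the genome. The controls had only 0.00713 and 0.0105 peaks per 100 kb over the genome. Lists this short cannot show whether control peaks were denser in 1 Mb. With 2 lists in a group, an exact two-sided permutation test of 2 against 2 cannot fall below p = 0.333, so no test of density between factors was made. Windows around other genes were not compared.

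**Figure D1:**
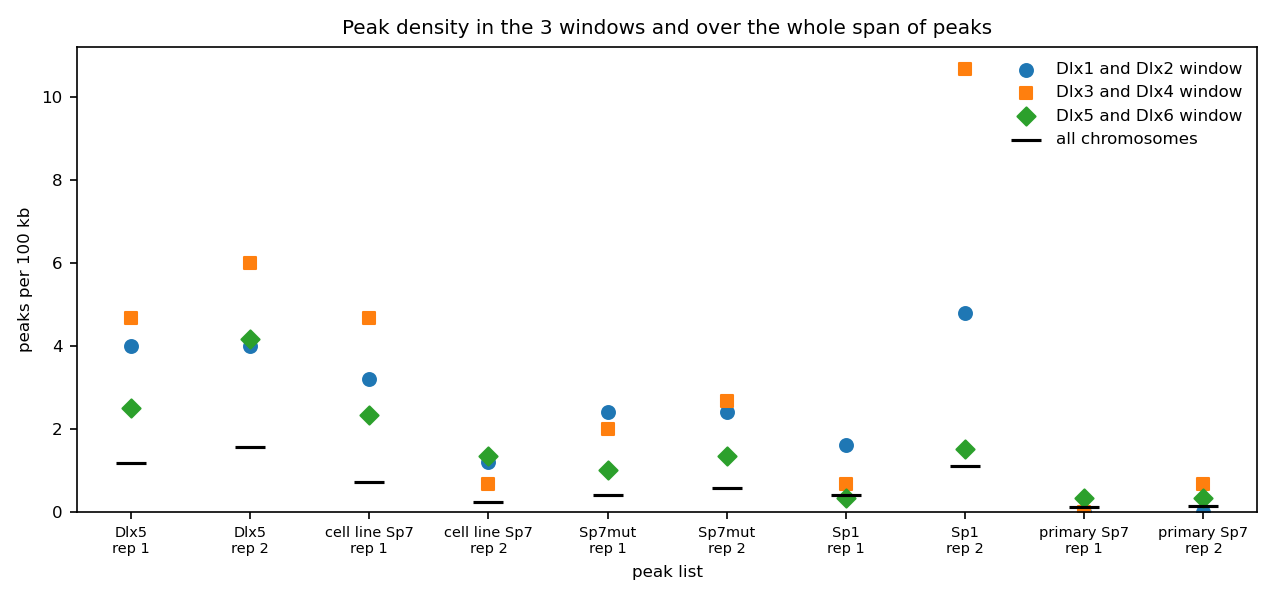
Peaks per 100 kb (y axis) of the 10 tagged lists (x axis) in the 3 windows (points) and over the whole span of peaks on all chromosomes (black bars). Sp1 replicate 2 stands highest in the Dlx3 and Dlx4 window at 10.7 peaks per 100 kb, while Sp1 replicate 1 has 0.667 there.

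The 3 windows differed in which list filled them. In the Dlx3 and Dlx4 window, Sp1 replicate 2 had 16 peaks and Sp1 replicate 1 had 1, and 7 of the 19 sites held a peak of Sp1 replicate 2 and of no other tagged list. In the Dlx5 and Dlx6 window, Dlx5 replicate 2 had 25 peaks and replicate 1 had 15, and 9 of the 30 sites held Dlx5 replicate 2 alone. Of all Sp1 replicate 2 sites in the 3 windows, 30.6% were met by no other tagged list, against 26.0% in the whole series. For Dlx5 replicate 2 these shares were 25% and 29.3%, so both lists were near their background. The Dlx1 and Dlx2 window had 10 peaks in each Dlx5 list, 6 in each Sp7mut list, 8 and 3 for cell line Sp7 and 4 and 12 for Sp1. Over the 3 windows, 26 sites (40.6%) were met by a single tagged list, close to the 39.6% of all merged sites. Sites met by 7 or more of the 10 tagged lists numbered 9, or 14.1%, against 7.09% of all merged sites. No site was met by all 10.

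A site was counted for a factor when it held a peak of both replicates. Dlx5 had 29 such sites, or 45.3% of the 64, where 39.2% of all merged sites were Dlx5 sites. Of these, 9 lay in the Dlx1 and Dlx2 window, 7 in the Dlx3 and Dlx4 window and 13 in the Dlx5 and Dlx6 window. Cell line Sp7 had 12 sites (18.8%, background 8.54%), with 3, 1 and 8 in the same order. Sp7mut had 15 (23.4%, background 13.9%), with 6, 3 and 6. The Dlx5 share was thus near its background, and the shares of both Sp7 forms were higher than theirs. Sp1 had 6 sites (9.38%, background 15.1%), with 3, 1 and 2, and primary Sp7 had 1 (1.56%, background 3.58%), in the Dlx5 and Dlx6 window. The remaining 33 sites were met by both replicates of no factor, a share that was not counted over all merged sites. These counts are limited by the shorter list of each group: without replicate 2 cell line Sp7 had 28 sites, and without replicate 1 Sp1 had 37.

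Taken list by list, the 64 sites held a peak of cell line Sp7 in 28 and 12 cases, where 29.2% and 9.63% of all merged sites did, and these are 43.8% and 18.8% of the 64. Dlx5 met 50% and 68.8% of them (background 48% and 63.7%), Sp7mut 23.4% and 28.1% (background 16.5% and 23.2%). Sp1 replicate 2 met 56.2% (background 44.7%) and replicate 1 met 9.38% (background 16.5%), so the Sp1 lists lay on opposite sides of their background. Primary Sp7 met 3.12% and 4.69% (background 4.34% and 5.22%), the wild-type control 0 of 64 (background 0.29%) and the GFP control 1 of 64 (background 0.429%).

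**Figure D2:**
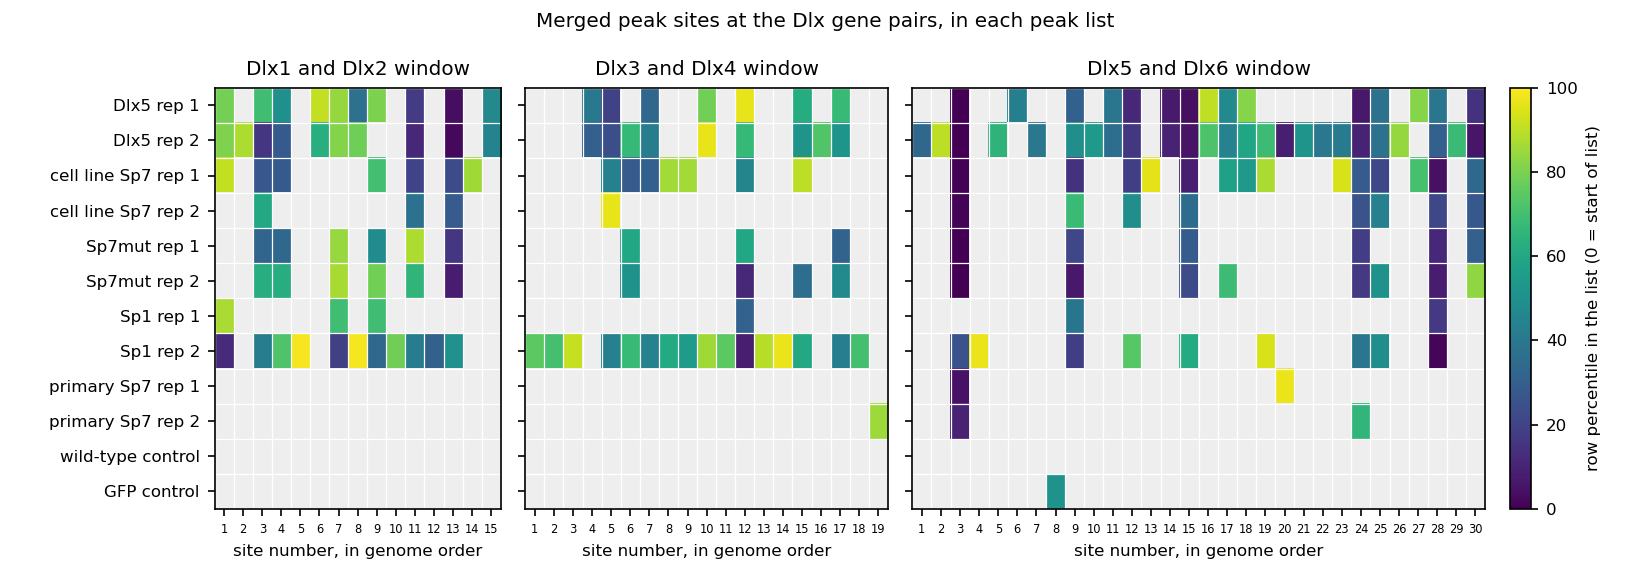
Row percentile (colour, 0 at the start of a list and 100 at its end) of each merged site (x axis, numbered in genome order in each window) in each of the 12 peak lists (y axis), with grey where a list had no peak. Site 3 of the Dlx5 and Dlx6 window is dark in both lists of Dlx5, cell line Sp7, Sp7mut and primary Sp7, and the primary lists are empty in the Dlx1 and Dlx2 window.

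The deposited lists give no score, so each peak is described by its row percentile, 100 times its row number over the number of rows of its list, which is small at the start. The rule behind the order of rows is not stated in the sources used here, and a percentile ranks a peak within its own list only. Coordinates of sites are 1-based, in mm9.

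The site met by most lists was chr6:6493947-6494137 in the Dlx5 and Dlx6 window, with 9 of the 10 tagged lists. In the Dlx5 lists it stood at row 32 of 30234 and row 29 of 39749, percentiles of 0.106 and 0.0730. Sp7mut had it at rows 21 and 31, percentiles 0.200 and 0.209. Cell line Sp7 had it at rows 74 and 51, percentiles 0.397 and 0.841. It thus stood near the start of all 6 of these lists. In primary osteoblasts it was at row 132 of 2666 and row 326 of 3212, percentiles of 4.95 and 10.1, and it was the only site of the 64 with a peak in both primary lists. Sp1 had it in replicate 2 alone, at percentile 25.1. Peaks of the 9 lists were 101 to 191 bp wide and the merged site spanned 191 bp, so they lay on top of one another.

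The Dlx5 and Dlx6 window held 8 of the 12 cell line Sp7 sites, but at 600 kb it is also the longest, against 250 and 150 kb. Per 100 kb, cell line Sp7 replicate 1 had 2.33 peaks there, 3.2 at Dlx1 and Dlx2 and 4.67 at Dlx3 and Dlx4, while replicate 2 had 1.33, 1.2 and 0.667, so the order of the windows differed between the lists. In the Dlx5 and Dlx6 window 4 further sites were met by 7 or 8 lists. At chr6:6905729-6906003 Sp1 was early, with percentiles of 16.6 and 1.58, and so were Sp7mut with 11.2 and 7.42 and cell line Sp7 with 4.32 and 21.5. Dlx5 stood later there, at 39.1 and 30.8. This was the earliest of the 6 Sp1 sites by its mean percentile. Sp1 was early in both of its lists there, while chr6:6493947-6494137 had no peak of Sp1 replicate 1. The site chr6:6832059-6832529 showed early Dlx5 rows, at 6.89 and 9.85, followed by Sp7mut at 18.3 and 16.6 and cell line Sp7 at 29.0 and 25.8. Sp1 replicate 2 had it at 39.3 and primary Sp7 replicate 2 at 65.6, with no peak in primary replicate 1. At chr6:6751729-6752271 Dlx5 was early again, at 4.04 and 5.43, with cell line Sp7 at 8.51 and 35.4, Sp7mut at 28.9 and 22.9 and Sp1 replicate 2 at 61.4. Both Dlx5 lists had these last sites near the start.

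The site chr6:6528401-6528725 was a site of Dlx5, cell line Sp7, Sp7mut and Sp1, with percentiles of 31.2 and 49.6, 14.8 and 68.3, 21.3 and 6.76, and 38.8 and 18.4. The only control peak of the windows, chr6:6528237-6528359 in the GFP list at row 138 of 269, ended 41 bp before it. The part of antibody background in this site was not tested. It and chr6:6905729-6906003 were the only sites of the 3 windows that both Sp1 replicates shared with both cell line Sp7 replicates.

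A close group of 6 sites, with gaps of at most 10 kb, spanned 15.7 kb at chr6:6819538-6835205. Dlx5 replicate 2 met all 6 and Dlx5 replicate 1 met 2 of them, chr6:6832059-6832529 and chr6:6834934-6835205, both of which were also cell line Sp7 sites. The narrow sites chr6:6828324-6828445 and chr6:6829555-6829649, of 122 and 95 bp, were met by Dlx5 replicate 2 alone, at percentiles of 51.9 and 39.5. At chr6:6831632-6831838, Dlx5 replicate 2 was at 41.3 and cell line Sp7 replicate 1 at 93.9. At chr6:6819538-6819867, Dlx5 replicate 2 was early, at 8.48, and primary Sp7 replicate 1 was near its end, at 97.0. These 4 sites were therefore seen by Dlx5 in 1 of 2 replicates only. Whether any of them overlaps an exon of Dlx5, from which an introduced Dlx5 sequence would also give reads, was not tested.

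Some sites of the Dlx5 and Dlx6 window were met by Dlx5 and little else. At chr6:6744002-6744182 both Dlx5 lists were early, at 7.13 and 9.85, with no peak of any other list. At chr6:6649325-6649544 they were at 39.3 and 36.0, again alone. By contrast, chr6:6656772-6657036 was early for Dlx5, at 11.2 and 16, and held cell line Sp7 at 18.4 and 49.4 and Sp1 replicate 2 at 74.1, but no Sp7mut peak. At chr6:6978575-6978795 Dlx5 had 14.6 and 5.91, cell line Sp7 33.6 and 27.5, and Sp7mut 30.6 and 83.2. Early Dlx5 rows were thus found with peaks of cell line Sp7 and, at chr6:6744002-6744182, without them. The sites of this paragraph were chosen after their values were seen. Across the 3 windows, 7 of the 12 Dlx5 sites with cell line Sp7 had a mean in the first 20% of rows (whole series 58.2%). Among the 17 without it, 1 did (whole series 16.8%).

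**Figure D3:**
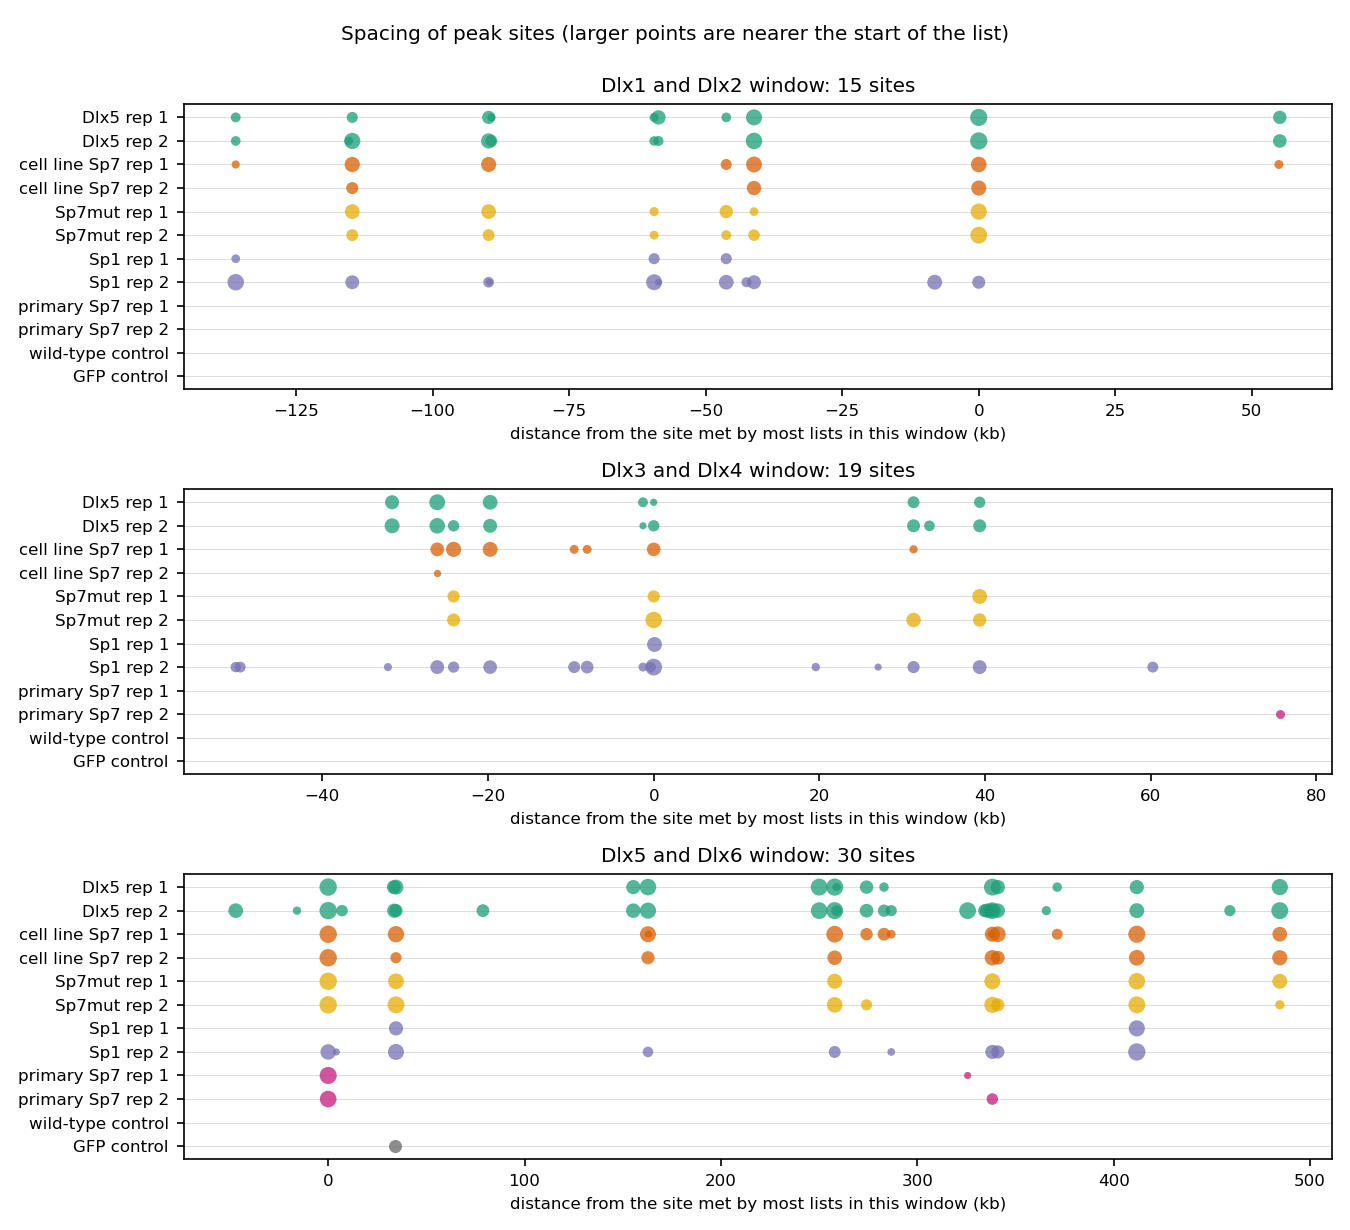
Position of each site (x axis, kb from the site met by most lists in that window) in each of the 12 lists (y axis), with larger points for peaks nearer the start of a list. The Dlx5 and Dlx6 window shows columns of points at 0, 34.5, 258, 338 and 412 kb, the sites met by most lists, and the row of Sp1 replicate 2 is the fullest in the Dlx3 and Dlx4 window.

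At Dlx1 and Dlx2 the leading site was chr2:71427172-71427435, the earliest there by the mean percentile of both lists for Dlx5, for cell line Sp7 and for Sp7mut. Dlx5 had it at percentiles of 3.68 and 2.15, Sp7mut at 15.7 and 7.58, cell line Sp7 at 23.1 and 28.6 and Sp1 replicate 2 at 50.8. The replicates of each factor stood close together, and it was near the start of both Dlx5 lists. At chr2:71386029-71386273 Dlx5 was at 17.9 and 11.4, cell line Sp7 at 20.2 and 37.4 and Sp7mut late, at 87.6 and 65.3, with Sp1 replicate 2 at 42.4. Cell line Sp7 replicate 1 had this site earlier than the leading one, and replicate 2 had it later. Sp7mut thus had this site in the later part of both of its lists and the leading site in the early part.

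The third Sp7 site of this window, chr2:71312394-71312788, had replicates far apart. Dlx5 was at 69.4 and 15.6, cell line Sp7 at 27.2 and 60.5, Sp7mut at 32.5 and 62.5, and Sp1 replicate 2 at 42.4. Its place in a list thus differed widely between replicates for Dlx5, cell line Sp7 and Sp7mut. The site chr2:71337459-71337665 was met by both lists of Dlx5, at 50.1 and 28.4, and of Sp7mut, at 33.8 and 62.5, but by cell line Sp7 in replicate 1 alone, at 28.4. Sp1 replicate 2 had it at 72.5.

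The 3 Sp1 sites of both replicates at Dlx1 and Dlx2 differed from its Sp7 sites. At chr2:71367361-71368363, the longest site of all at 1003 bp, Sp1 was at 69.2 and 19.1, Dlx5 at 84.1 and 81.5 and Sp7mut at 84.5 and 86.7, with no cell line Sp7 peak. The Sp7mut peaks there shared no base with the Dlx5 peaks and were joined to them through a peak of Sp1. At chr2:71380774-71381364 Sp1 was at 69.2 and 33.3 and Sp7mut at 48.2 and 78.8, while Dlx5 had replicate 1 alone, at 80.1, and cell line Sp7 replicate 1 alone, at 69.9. At chr2:71290927-71291587 Sp1 was at 87.4 and 12.3 and Dlx5 at 79.0 and 80.7, with cell line Sp7 replicate 1 at 91.0. None of these sites held both replicates of cell line Sp7, and Dlx5 stood in the later part of its lists at all of them. The primary Sp7 lists had no peak in this window.

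At Dlx3 and Dlx4 the only cell line Sp7 site was chr11:94961788-94962068, with Sp7 at 44.0 and 96.2. It was also the earliest Dlx5 site of the window, at 19.4 and 24.1, and Sp1 replicate 2 had it at 43.6, while Sp7mut had none. The site met by most lists there was chr11:94987874-94988245, with 7. Sp1 had it at 31.6 and 8.43, Sp7mut at 59.4 and 11.4, Dlx5 at 96.2 and 66.8 and cell line Sp7 in replicate 1 alone, at 45.4. Dlx5 thus had this site in the later part of both of its lists, as it did the Sp1 sites of Dlx1 and Dlx2 where it had a peak, while Sp1 was in the earlier part of both of its lists here and of replicate 2 alone there.

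The other sites of the Dlx3 and Dlx4 window met by 5 lists held no peak of cell line Sp7 replicate 2. At chr11:94963738-94964065 Sp7mut was at 59.4 and 51.1, cell line Sp7 replicate 1 at 28.6, Dlx5 replicate 2 at 66.8 and Sp1 replicate 2 at 67.9. At chr11:95027138-95027685 Sp7mut was at 31.9 and 48.0, Dlx5 at 67.2 and 51.8 and Sp1 replicate 2 at 42.6, with no cell line Sp7 peak. At chr11:95019267-95019591 Dlx5 was at 61.9 and 51.8, and cell line Sp7 replicate 1, Sp1 replicate 2 and Sp7mut replicate 2 were at 90.2, 60.3 and 36.2. A primary Sp7 peak of replicate 2 alone lay at chr11:95063541-95063740, at 85.5, and no other list met it. The 11 sites of this window that no factor met in both replicates compare with 5 of 15 at Dlx1 and Dlx2 and 17 of 30 at Dlx5 and Dlx6. Of the 17, 1 held the GFP control peak only. No background share was counted for such sites, so the 11 of this window cannot be read as many or few. This window was also the one cut closest to a peak: an Sp1 replicate 2 peak had its midpoint 0.642 kb outside its right edge, while the nearest outside peak of the other edges was 21.5 to 528 kb away.

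All 12 cell line Sp7 sites at the Dlx pairs were Dlx5 sites (95% Clopper-Pearson interval 73.5 to 100%), and 87.1% of all cell line Sp7 sites of the series were. The share was 90% of 10 sites when peaks were merged only on an overlap of 50% of both, and 0% of the 2 Sp7 sites left among the wider 50% of peaks. Sp7 and Dlx5 of the cell line were called against the same input library. By single lists, 75% and 78.6% of the 28 sites of Sp7 replicate 1 were met by Dlx5 replicates 1 and 2, and all 12 sites of Sp7 replicate 2 by each. Of the 12, 9 were Sp7mut sites and 2 were Sp1 sites (16.7%, background 33.6%). Sp1 replicate 1 met 17.9% and 16.7% of the sites of Sp7 replicates 1 and 2 (whole series 28.5% and 31.9%). Sp1 replicate 2 met 75% and 91.7% of them (whole series 65.7% and 67.7%). The low share of Sp1 sites thus came from Sp1 replicate 1. For sites of both replicates, the background lies inside the interval for Dlx5 and for Sp1, at 2.09 to 48.4%. At 12 sites no difference from the rest of the series could therefore be seen.

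Read from Dlx5, 12 of its 29 sites (41.4%, interval 23.5 to 61.1%) were cell line Sp7 sites, against 19% of all Dlx5 sites. In the Dlx5 and Dlx6 window these were 8 of 13, at Dlx1 and Dlx2 3 of 9 and at Dlx3 and Dlx4 1 of 7. The interval of the 3 windows together lay above the background, but the window counts were small and sites are not replicates, so the interval covers counting error only. With single lists, the share of Dlx5 sites met by Sp7 was 27.3 to 65.6% over the 4 combinations, and each exceeded the share of the same combination in the whole series, which ran from 13.6 to 43.4%. Of the 29 Dlx5 sites, 13 were Sp7mut sites (44.8%, background 25.2%) and 5 were Sp1 sites (17.2%, background 13.3%), and 1 was a primary Sp7 site (background 6.37%). Read from Sp1, 5 of its 6 sites were Dlx5 sites (83.3%, interval 35.9 to 99.6%, background 34.5%) and 5 were Sp7mut sites (background 39.6%).

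Sp7mut met 9 of the 12 cell line Sp7 sites (75%, background 71.7%). It lacked the Sp7 site chr11:94961788-94962068 and the site chr6:6656772-6657036 in both replicates, and had chr6:6834934-6835205 in replicate 2 alone, at percentile 51. Of the 15 Sp7mut sites, 13 were Dlx5 sites (86.7%, background 71.3%), 9 were cell line Sp7 sites (60%, background 44.1%) and 5 were Sp1 sites (33.3%, background 43.2%). The 6 Sp7mut sites without both Sp7 replicates lay at Dlx1 and Dlx2 and at Dlx3 and Dlx4, 3 in each. Among them only chr2:71367361-71368363 and chr11:95027138-95027685 lacked Sp7 in both replicates, and the others held Sp7 replicate 1. By single lists, Sp7 replicate 1 met 86.7% of the 15 sites of Sp7mut replicate 1 (whole series 74.5%). Sp7 replicate 2, the shorter list, met 60% of them (whole series 41.4%), so the count of 6 depends on that list. At Dlx5 and Dlx6 all 6 Sp7mut sites were Sp7 sites. These 12 lists do not allow a test of this difference between the windows. Sp7mut and Sp1 were called against a second input library, so factor and input cannot be told apart in any comparison of them with Sp7 or Dlx5.

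**Figure D4:**
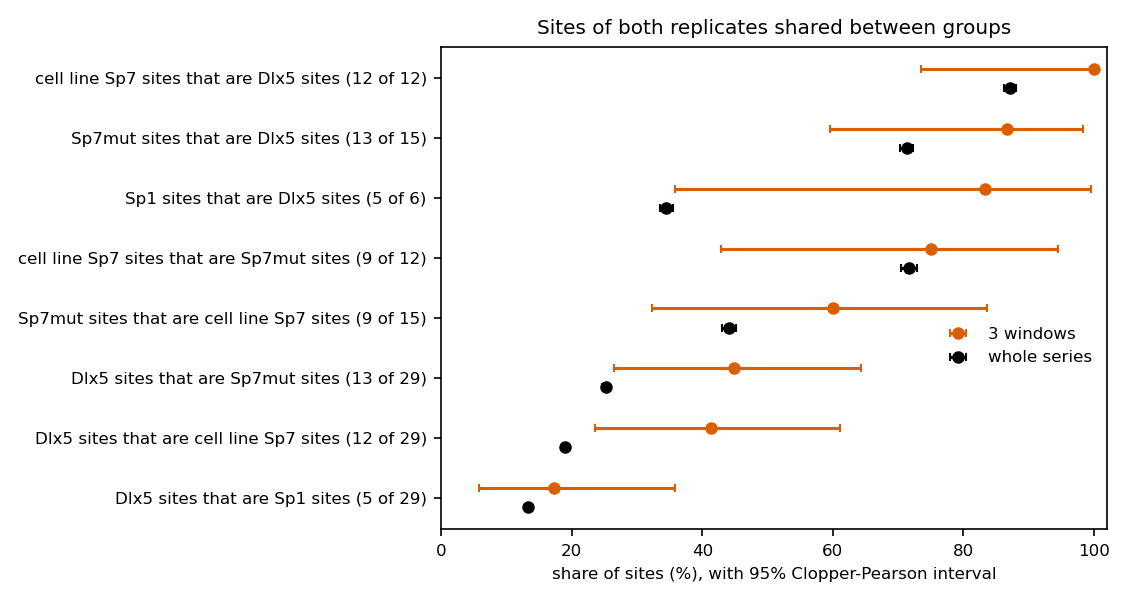
Share of a factor's sites that are also sites of another factor (x axis, percent, points with 95% Clopper-Pearson intervals as bars) for 8 ordered combinations (y axis, with counts in the 3 windows), in the 3 windows (orange) and in the whole series (black). Dlx5 sites that are cell line Sp7 sites stand at 41.4% in the windows and 19% in the whole series.

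Dlx5 sites that Sp7 shared stood earlier in the Dlx5 lists than those it did not. The mean percentile over both Dlx5 lists had a median of 14.1 for the 12 shared sites, with a range from 0.0894 to 42.5. It had a median of 57.7 for the 17 others, from 8.49 to 87.8. In the whole series the medians were 14.7 for 4546 sites and 45 for 19411, so the split at the Dlx pairs went the same way as in the pooled series. By window, the median percentile of Dlx5 sites was 35.0 at Dlx5 and Dlx6, 46.0 at Dlx1 and Dlx2 and 56.8 at Dlx3 and Dlx4, against 40.1 over all Dlx5 sites. At Dlx5 and Dlx6, 6 of the 13 Dlx5 sites had a mean in the first 20% of rows. At Dlx1 and Dlx2 it was 2 of 9, and at Dlx3 and Dlx4 0 of 7. Together these were 8 of 29 (27.6%), near the 24.6% of all Dlx5 sites in the series.

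Peak centres of the factors lay close together where they shared a site. Short distances are largely set in advance, since a site is made of peaks that share bases and the nearest midpoints were taken. The median distance between the nearest midpoints of Sp7 and Dlx5 peaks was 43.0 and 46.8 bp for Sp7 replicate 1 and 18.5 and 32.0 bp for Sp7 replicate 2. Between replicates it was 27.5 bp for Dlx5 over 29 sites, 42.5 bp for cell line Sp7 over 12 and 22.0 bp for Sp7mut over 15. The distances between Sp7 and Dlx5 thus lay within or near the range seen between replicates. Dlx5 and Sp1 peaks were 58.0 to 115 bp apart by median in the 4 combinations. That is more than the 27.5 bp between Dlx5 replicates or the 11.8 bp between Sp1 replicates, the latter over 6 sites. The larger medians, 92.8 and 115 bp, were those of Sp1 replicate 1, over 6 and 5 sites only. Sp7 and Sp1 replicate 2 peaks were 33.5 and 42.5 bp apart, over 21 and 11 sites, within the range of Sp7 and Dlx5. From Sp1 replicate 1, Sp7 peaks were 78.5 and 57.8 bp apart, over 5 and 2 sites. Sites of the windows had a median length of 211.5 bp and ran from 17 to 1003 bp.

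Sp7 of primary osteoblasts and of the cell line met at 1 site of the Dlx pairs, chr6:6493947-6494137. It was also a Dlx5 site and an Sp7mut site but not an Sp1 site, and of all primary Sp7 sites 40.5% were cell line Sp7 sites, 69.9% Dlx5 sites, 50.9% Sp7mut sites and 8.15% Sp1 sites. Of all cell line Sp7 sites, 17% were primary Sp7 sites, of Sp7mut sites 13.1% and of Sp1 sites 1.92%. The primary lists had 2 and 3 sites in the windows and the cell line lists 28 and 12. The primary lists are shorter over the whole genome too, with 2666 and 3212 peaks against 18624 and 6063. As a share of the list, the windows took 0.0750% and 0.0934% of primary Sp7 peaks and 0.156% and 0.198% of cell line Sp7 peaks. Both cell line lists were higher, but with 2 against 2 lists the smallest possible exact p of 0.333 leaves this untested, and cell system, level of the tagged protein and list length cannot be told apart.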

How the data were processed

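The authors deposited 1 peak list per library for 12 of the 15 samples, with 3 columns (chromosome, start and end in bases) and no score, fold or read count, so depth is unknown. The 3 input samples had no list and were not analysed here. Positions are in mm9, a build named in the submitters' processing notes. For the aligner, peak caller and threshold, the sources used here name nothing. Per the labels, the 3 primary lists share 1 primary input. In the cell line, Sp7 and Dlx5 share an input library, Sp1 and Sp7mut share another, and none is named for GFP. Peak positions cannot check the labelled cell type against marker genes.

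Starts were read as 0-based, as in BED files, and 1 was added. Groups and replicates came from sample titles. Peaks of all lists were merged on a shared base, and a site belonged to a window when a midpoint of its peaks did. Where a list had several peaks in a site, the earliest row was taken. Density was peaks over the 2566 Mb between the outermost peaks of each chromosome. Members, windows and tests were chosen with earlier results of these data known. Sites described in full were, in each window, the 5 met by most tagged lists (ties by the smaller median row percentile), the earliest site of each factor, and any control peak; other sites named were chosen after their values were seen. The merging code was tested on simulated lists. Counts were made with pandas 2.3.3 and numpy 2.4.6 in Python 3.11.15, intervals with scipy 1.17.1 and plots with matplotlib 3.10.9. Alternatives are given at the end.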

Additional observations from a re-analysis of the deposited data

How the results depend on the processing

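No paired analysis was possible because the results are counts and positions with no test. Leaving out the sites with a control peak, or counting a peak by any of its bases, moved no result by over 1.5 times, nor did merging peaks up to 200 bp apart, which was chosen after seeing the data. Merging only on an overlap of 50% of both peaks gave 25 sites at Dlx1 and Dlx2 and 30 at Dlx3 and Dlx4, and 2 Dlx5 sites at Dlx3 and Dlx4, and 90% of the 10 cell line Sp7 sites were Dlx5 sites. With the earlier 50% of rows there were 7 sites at Dlx3 and Dlx4 and 17 at Dlx5 and Dlx6, 3 Dlx5 sites at Dlx1 and Dlx2 and 3 at Dlx3 and Dlx4, 7 Sp7mut and 3 Sp1 sites. With the wider 50% of peaks, Dlx5 had 0, 1 and 1 sites in the 3 windows, cell line Sp7 2, primary Sp7 0, Sp7mut 1 and Sp1 2, and 0% of the Sp7 sites were Dlx5 sites, with 2 Sp7 sites left. Fewer peaks enter these last settings by construction. Leaving out replicate 1 or 2 of every group gave 20 and 10 sites at Dlx3 and Dlx4, where fewer lists enter the merge. A site of a factor then needs 1 list only, and there were 25 and 15 Dlx5 sites at Dlx5 and Dlx6, 12 and 28 cell line Sp7 sites, 3 and 2 primary Sp7 sites and 37 and 6 Sp1 sites. The lists give no depth, so a site missing from a list is not shown to be unbound.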

Other observations

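Rows that follow each other in a list in some cases belong to neighbouring peaks. In Dlx5 replicate 2, 1.86% of consecutive rows were on the same chromosome within 100 kb, and in the 10 tagged lists the share ran from 0.225% to 1.86%. In the windows, 5 such neighbours were found in the 12 lists: 2 in Dlx5 replicate 2 and 1 each in cell line Sp7 replicate 1, Sp1 replicate 1 and Sp7mut replicate 2. Sp1 replicate 1 had chr2:71367361-71368363 at row 7304 and chr2:71380774-71381364 at row 7305, and Dlx5 replicate 2 had chr11:95019267-95019591 at row 20580 and chr11:95027138-95027685 at row 20581. Consecutive rows have nearly equal row percentiles by definition. Why neighbouring peaks stood in consecutive rows was not tested.

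Of the 64 sites, 8 lay within 200 bp of the next, down to a gap of 17 bp between chr6:6527327-6527628, a peak of Dlx5 replicate 1 alone, and chr6:6527646-6527681, a peak of Dlx5 replicate 2 alone.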
